A study of Mus musculus with 4 samples.

Results

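The BCL2 family decides whether a cell under stress permeabilises its mitochondria, and 10 of its genes were followed in B lymphoma cells with and without Mbd4. They were chosen by name, as 3 anti-apoptotic genes (Bcl2, Bcl2l1, Mcl1), 2 pore-forming effectors (Bax, Bak1) and 5 BH3-only genes (Bid, Bcl2l11, Bbc3, Pmaip1, Bmf). The platform's gene table gave 9 of the 10 a transcript cluster of their own, 1 each, out of 21789 clusters with exactly 1 gene symbol and 35556 on the array. Bax was not analysed here, so Bak1 stood alone for the effectors.

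Proteins of this family meet at the outer membrane of mitochondria. Anti-apoptotic members hold the effectors BAX and BAK in check, and BH3-only proteins either bind and neutralise these guardians or activate the effectors directly. Once BAX or BAK form pores, cytochrome c escapes, the apoptosome assembles and caspases are activated. In B cells the balance between BIM, the product of Bcl2l11, and its anti-apoptotic partners sets cell survival, and CD40 stimulation is known to raise anti-apoptotic members.

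Expression was measured on 4 Affymetrix whole-transcript arrays, 2 of Mbd4 KO cells and 2 of control cells. Both groups were CH12.F3, a mouse B lymphoma line that switches from IgM to IgA in culture, kept in medium with 6% serum. Activation lasted 24 hours in both groups, with IL-4 at 5 ng/ml, TGF-beta at 0.2 ng/ml and CD40 ligand making up 25% of the volume. The Mbd4 KO cells lack the repair enzyme MBD4, which recognises methylated CpG dinucleotides and excises thymine or uracil paired with guanine. All arrays come from activated cells of 1 line. Whether a group's arrays stem from separate cultures or knockout clones is not in the labels, so the spread behind the p-values may be technical, and a clonal difference cannot be told apart from the loss of Mbd4.

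Values are RMA values, log2 summaries of a cluster's probes. Array medians ran from 6.944 to 6.978, and Pearson's r across clusters, which are not independent replicates, was at least 0.9977 between arrays of a group and at most 0.9958 between groups. Mbd4 read 6.47 and 6.49 in Mbd4 KO cells, against 8.74 and 8.77 in control cells, a difference of -2.28 ± 0.066 (log2, SE; limma adjusted p = 0.0002), so the arrays ranked as labelled. The 6 B cell markers measured (Cd79a, Cd79b, Cd22, Pax5, Blnk, Ebf1) lay between the 87.2th and 96.1th percentile of their arrays. Markers of other cells lay lower, 5 T cell markers at 16.5 to 50.6, 5 myeloid markers at 14 to 56.1 and 4 fibroblast markers at 47.2 to 59.4.

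None of the 9 members changed past the threshold. Adjusted by Benjamini-Hochberg over the 21789 clusters tested, limma gave the members p-values of 0.177 to 0.915, so 0 were called, against 1.39% of all tested clusters (0.431% higher and 0.955% lower in Mbd4 KO cells). At an unadjusted p under 0.05, 2 members were higher (Bbc3 and Bcl2) and 1 lower (Bak1). That is 33.3% of 9 clusters, where 13.8% of all tested clusters passed the same mark, 7.4% higher and 6.43% lower. No test sets these counts apart from the background, since the members were chosen with earlier results of these data known. In bulk RNA, fewer cells expressing a gene and less RNA per cell cannot be told apart.

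The intervals describe the precision of the differences between these arrays, whose spread may be technical, and do not bound the effect of losing Mbd4. Over the 9 members the 95% intervals of the difference, taken 1 at a time, reached from -0.372 for Bak1 to 0.439 for Bbc3 on the log2 scale, or from 1.29-fold lower to 1.36-fold higher. Standard errors were 0.0677 to 0.117. In simulated data of this design limma called 15% of 100 clusters changed by 0.5 and 93% of 100 changed by 1 (log2). Differences of the size seen here thus lie below what it usually calls. It also called 6 unchanged clusters, so some calls may be false.

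Of the anti-apoptotic genes, Bcl2 differed most. Bcl2, first found at the translocation of follicular B cell lymphoma, encodes a membrane protein that binds BIM, PUMA and BAX. Its values were 10.01 and 10.08 in Mbd4 KO cells, against 9.83 and 9.84 in control cells (log2). Both Mbd4 KO arrays were higher than both control arrays, and the gap between groups was wider than the gap within either. The difference was 0.21 ± 0.068 (log2, SE), 1.16-fold, with an unadjusted p of 0.0201 and an adjusted p of 0.254 by limma. Its 95% interval ran from 0.0467 to 0.378.

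Bcl2l1 and Mcl1 differed less. Bcl2l1 encodes BCL-XL, with a shorter, pro-apoptotic splice form that a single cluster value does not separate. It read 8.02 and 8.25 in Mbd4 KO cells, against 8.03 and 8.09 in control cells, so that the 2 Mbd4 KO arrays lay on either side of both control arrays. The difference was 0.07 ± 0.095 (log2, SE; limma adjusted p = 0.797). Mcl1, a short-lived guardian that germinal centre and activated B cells need, read 11.25 and 11.35 in Mbd4 KO cells, against 11.26 and 11.27 in control cells. Here too the groups overlapped, with a difference of 0.04 ± 0.071 (adjusted p = 0.86) and an interval from -0.134 to 0.212. The cluster of Mcl1 lay between the 93.4th and 93.8th percentile of the values on its array, and that of Bcl2l1 between the 63.4th and 65.6th.

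Bak1 was the 1 member with a difference below 0. It encodes BAK, a resident of the outer mitochondrial membrane that oligomerises into a pore. Its values were 9.95 and 10.04 in Mbd4 KO cells, against 10.23 and 10.14 in control cells. Both Mbd4 KO arrays lay under both control arrays, by a difference of -0.19 ± 0.074 (log2, SE), 1.14-fold. Limma gave an unadjusted p of 0.0411 and an adjusted p of 0.335, with an interval from -0.372 to -0.0107.

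**Figure D1:**
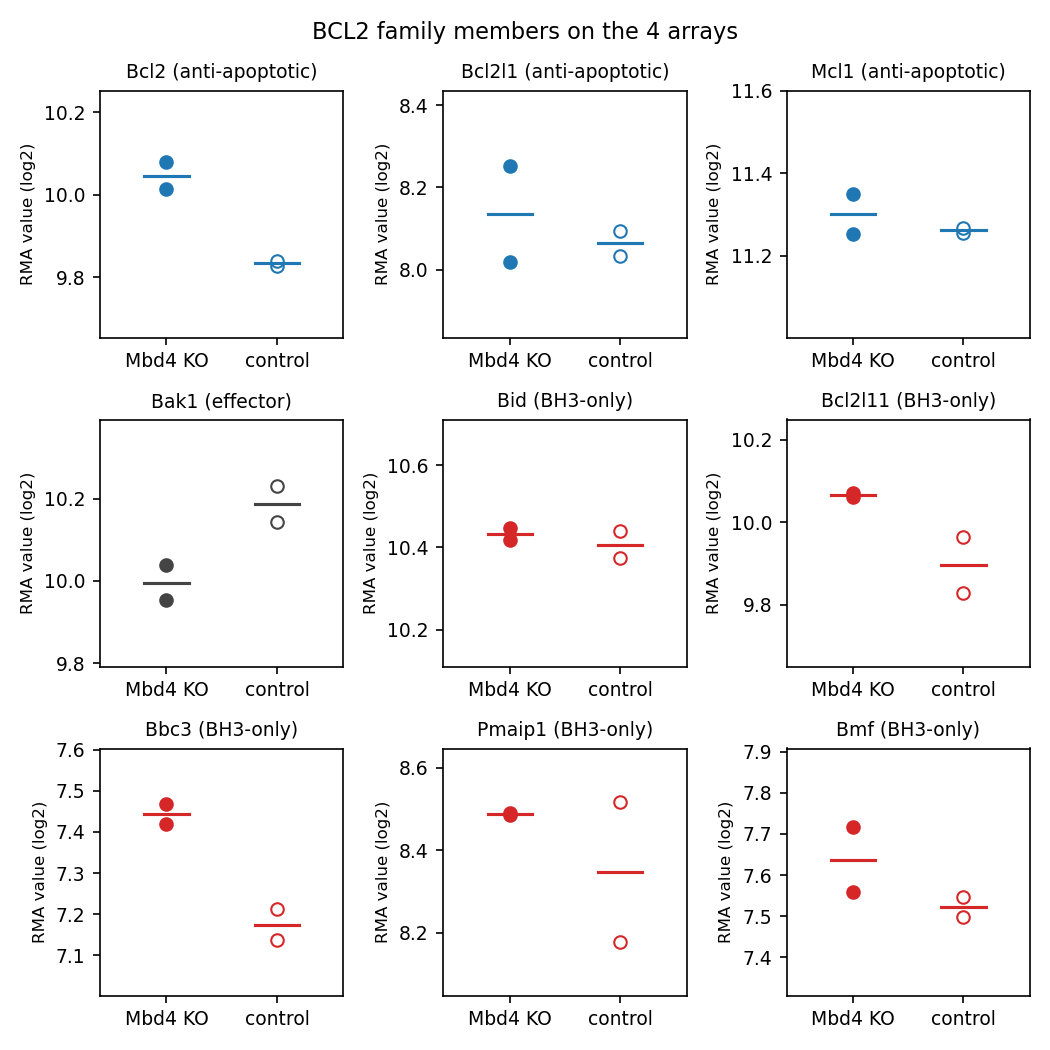
RMA values (log2) of the 9 members on each array, 1 panel per gene, with the 2 Mbd4 KO arrays as filled points on the left, the 2 control arrays as open points on the right and group means as bars. Every vertical axis spans the same range but has its own start, so heights compare within a panel only. Bcl2, Bcl2l11, Bbc3 and Bmf lie higher on both Mbd4 KO arrays, Bak1 lies lower, and the other 4 overlap.

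The 5 BH3-only genes all had differences above 0, from 0.03 for Bid to 0.27 for Bbc3, with a median of 0.142. A difference above 0 was found in 57.6% of all tested clusters, whose median was 0.0211. None of the 5 passed limma's threshold, and Bbc3 alone had an unadjusted p under 0.05.

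Bbc3 encodes PUMA, a BH3-only protein that binds all anti-apoptotic members and is a direct target of p53. It read 7.47 and 7.42 in Mbd4 KO cells, against 7.14 and 7.21 in control cells. The groups stood apart by more than the gap within either. The difference was 0.27 ± 0.070 (log2, SE), 1.2-fold, the largest among the members, with an unadjusted p of 0.00863, an adjusted p of 0.177 and an interval from 0.097 to 0.439. Its cluster lay in the middle of the arrays' values, between the 52.8th and 56.9th percentile. Markers of other cells reached this range, with fibroblast markers at 47.2 to 59.4 and myeloid markers at 14 to 56.1. Bmf lay at 56.9 to 60, partly within the fibroblast range. How much of either signal is background cannot be told from these values.

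Bcl2l11 encodes BIM, whose loss lets autoreactive lymphocytes survive. It read 10.07 and 10.06 in Mbd4 KO cells, against 9.96 and 9.83 in control cells. Both Mbd4 KO arrays were higher than both control arrays. The control arrays, though, lay further from each other than the higher of them did from either Mbd4 KO array. The difference was 0.17 ± 0.076 (log2, SE; unadjusted p = 0.0665, limma adjusted p = 0.403), and 0.10 to 0.24 with any 1 array left out. As BIM has several splice forms of unequal potency, a single cluster value does not tell which of them was measured.

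Bmf varied more between its Mbd4 KO arrays, and Pmaip1 between its control arrays. Bmf encodes a BH3-only protein held at the actin cytoskeleton until cells are stressed or detach. It read 7.72 and 7.56 in Mbd4 KO cells, against 7.55 and 7.50 in control cells, and the lower Mbd4 KO array was close to the higher control array. The difference was 0.11 ± 0.080 (log2, SE; limma adjusted p = 0.593). It was 0.04 without the first Mbd4 KO array and 0.19 without the second. Pmaip1 encodes NOXA, a p53 target that binds MCL1 and promotes its degradation. It read 8.49 on both Mbd4 KO arrays, against 8.52 and 8.18 in control cells. The second control array was low and the first was above both Mbd4 KO arrays, so the groups overlapped, and the SD was 0.0029 in Mbd4 KO cells and 0.24 in control cells, the smallest and the largest among the members. The difference was 0.14 ± 0.117 (adjusted p = 0.66), and it was -0.03 without the second control array.

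Bid encodes the link from death receptors to mitochondria, a protein that caspase 8 cleaves into its active form. It read 10.42 and 10.45 in Mbd4 KO cells, against 10.37 and 10.44 in control cells. The groups overlapped, and the difference was 0.03 ± 0.068 (log2, SE; limma adjusted p = 0.915). Bid lies on chromosome 6, as Mbd4 does, beside the family gene Bcl2l13, which read 10.57 and 10.54 in Mbd4 KO cells, against 10.41 and 10.51 in control cells (difference 0.09, adjusted p = 0.629).

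Across the family, arrays of the groups did not overlap for 5 of the 9 members, 55.6%, 4 of them higher and 1 lower in Mbd4 KO cells. Over all tested clusters this held for 45%, of which 26.7% of clusters were higher and 18.3% lower. Medians of the difference were 0.0711 over the 3 anti-apoptotic genes, -0.191 for Bak1 and 0.142 over the 5 BH3-only genes. Anti-apoptotic and BH3-only differences covered overlapping ranges, 0.04 to 0.21 and 0.03 to 0.27, and whether the roles differ was not tested. With 2 arrays a group, an exact two-sided permutation test of 1 member can give no p below 0.333.

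**Figure D2:**
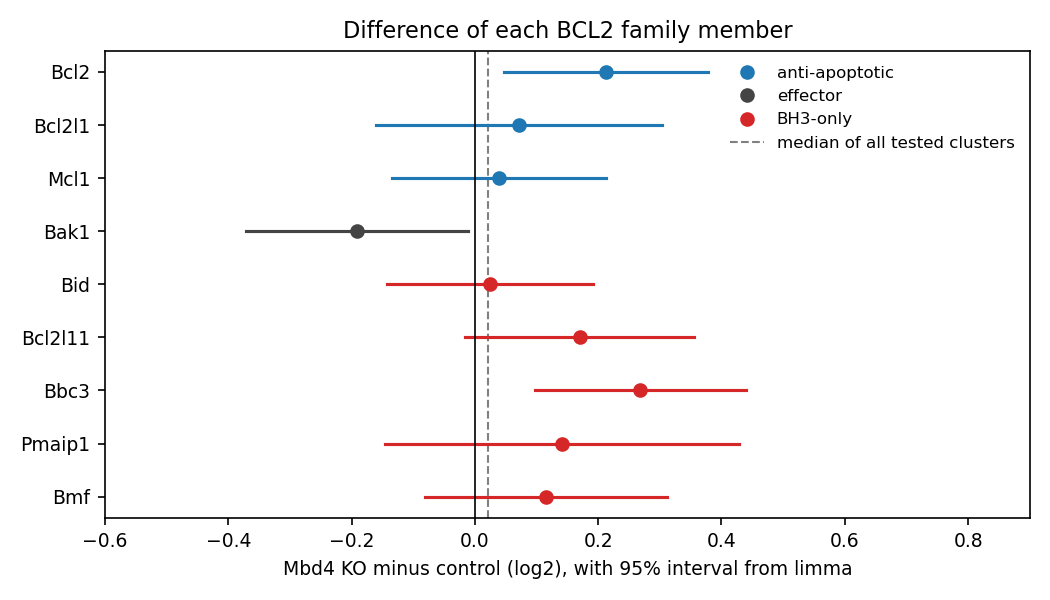
Difference of each member, Mbd4 KO minus control (log2), with its 95% limma interval, coloured by role; the solid line is 0 and the dashed line the median of all tested clusters, 0.0211. The intervals of Bcl2 and Bbc3 lie above 0 and that of Bak1 below it, before any adjustment for the number of clusters tested, and the other 6 span 0.

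The members lie on chromosomes 1, 2, 3, 6, 7, 17 and 18. Around each, the 60 tested clusters nearest in RefSeq gene order had median differences between -0.012 (Bcl2l1) and 0.068 (Bid). Bak1 thus lay below neighbours with a median of 0.0305, and Bbc3 and Bcl2 above neighbours with medians of 0.0328 and 0.0279.

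Since MBD4 recognises methylated CpG dinucleotides, the CpG content of the members' promoters was read from RefSeq (GRCm38.p6), which held 16 windows for 9 of the 10 genes, Bax included. Methylation was not measured in these samples. In the 250 bases before a start, CpG counts ran from 0 to 37, and 13 of the 16 windows were above 6, the median of all 32841 windows, as were 46.3% of all windows. The most upstream windows of Bcl2, Bbc3 and Bak1, the members with an unadjusted p under 0.05, are printed 5′ to 3′ with each CpG in capitals.
Bcl2: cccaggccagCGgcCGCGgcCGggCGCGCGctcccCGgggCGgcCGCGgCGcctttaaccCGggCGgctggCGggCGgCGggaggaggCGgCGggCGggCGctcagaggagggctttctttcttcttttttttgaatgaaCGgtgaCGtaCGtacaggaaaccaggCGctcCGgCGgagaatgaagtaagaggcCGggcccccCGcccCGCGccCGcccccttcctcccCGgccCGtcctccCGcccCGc
Bbc3: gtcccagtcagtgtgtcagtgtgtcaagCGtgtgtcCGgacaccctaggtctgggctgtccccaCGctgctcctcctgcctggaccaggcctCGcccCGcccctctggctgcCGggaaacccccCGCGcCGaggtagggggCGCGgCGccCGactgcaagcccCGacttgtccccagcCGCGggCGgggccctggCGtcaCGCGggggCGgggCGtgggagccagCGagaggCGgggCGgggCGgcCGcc
Bak1: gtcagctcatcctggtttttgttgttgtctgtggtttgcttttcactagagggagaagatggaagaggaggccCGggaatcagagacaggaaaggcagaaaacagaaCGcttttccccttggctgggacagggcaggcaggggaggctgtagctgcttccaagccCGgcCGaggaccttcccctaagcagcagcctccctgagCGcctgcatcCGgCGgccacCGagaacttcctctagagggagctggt
Bcl2, at chr1:106714291-106714540 on the minus strand, held 36 CpG sites, a count that 2.58% of all windows reached. Bbc3, at chr7:16309333-16309582 on the plus strand, held 27, which 8.57% reached. Bak1, at chr17:27028628-27028877 on the minus strand, held 8, which 43% reached. Bcl2 and Bbc3, with differences of 0.21 and 0.27, thus had CpG-rich windows and Bak1 a window nearer the median. Mcl1, with a difference of 0.04, also held 26. Bmf, with a difference of 0.11, held 8 in its most upstream window, as Bak1 did. Whether CpG content goes with the differences was not tested.

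FOXO transcription factors are known to act on Bcl2l11 and Bbc3, and their core letters TGTTTAC were searched on both strands of the same windows. They were found in 2 of the 16, the most upstream window of Bcl2l11 and a window of Bbc3 downstream of the printed one, and in 3.17% of all windows. Foxo1 read 10.36 and 10.48 in Mbd4 KO cells, against 10.29 and 10.24 in control cells (difference 0.16, limma adjusted p = 0.439). Foxo3 differed by 0.0019 (adjusted p = 0.995) and Foxo4 by 0.07 (adjusted p = 0.732).

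The transcription factors that act on BH3-only genes had 6 of 7 measured, Trp53 not being analysed here, and 0 called. Ddit3, which encodes the stress factor CHOP, read 9.01 and 8.94 in Mbd4 KO cells, against 8.64 and 8.59 in control cells, a difference of 0.36 ± 0.069 (log2, SE; limma adjusted p = 0.0869). Trp73, a p53 relative, read 9.14 and 9.08 in Mbd4 KO cells, against 8.83 and 8.73 in control cells (difference 0.33, adjusted p = 0.121). Both stood clear of the control arrays without passing. With an intensity trend in limma's prior both passed (adjusted p = 0.0117 for Ddit3 and 0.0197 for Trp73). That setting called 1121 of all 21789 tested clusters, against 302 without the trend. Ddit3 also passed without the dimmest 30% of clusters (0.0338), where 640 of 15253 were called. Neither passed with replicate number as a block (0.123 and 0.14), without moderation of the variance (0.335 and 0.389) or with all clusters tested (0.254 and 0.298).

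Among other genes of the pathway, 4 of 59 clusters from 48 of 55 listed genes passed, 2 higher and 2 lower, and they came from Bnip3 and Vdac3 only. The median difference over the 59 was 0.0017. Over all tested clusters 1.39% were called, and the 4 clusters stand for 2 genes.

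Bnip3, a BCL2-related mitophagy receptor with a BH3-like stretch, rose in both of its clusters. The first read 9.65 and 9.73 in Mbd4 KO cells, against 8.64 and 8.63 in control cells, a difference of 1.06 ± 0.069 (log2, SE; limma adjusted p = 0.00307). The second read 8.96 and 8.80 in Mbd4 KO cells, against 8.15 and 8.01 in control cells (difference 0.80, adjusted p = 0.0182). By identifier number the first lies among clusters of chromosome 14 genes and the second among those of chromosome 7, where Bnip3 lies. Whether the first measures the Bnip3 locus was not tested. With any 1 array left out the differences were 1.02 to 1.10 and 0.72 to 0.89, with adjusted p of 0.0299 to 0.0334 and 0.0699 to 0.125, in fits where 1 group has a single array and the spread comes from the other group and the prior. Neither was called when all clusters of the table were tested (0.0632 and 0.169). Its relative Bnip3l differed by 0.07 and 0.04 in its 2 clusters, and neither passed. By identifier number the first of these lies between clusters of chromosome 11 and chromosome 12 genes, though Bnip3l lies on chromosome 14. Of the rest of the BCL2-related group, Bcl2l14 had the largest difference (-0.27, adjusted p = 0.386). That difference was -0.43 without the first Mbd4 KO array and -0.11 without the second. Bcl2l14 lay at percentiles of 40.3 to 49, within the range of the T cell and myeloid markers.

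Vdac3 encodes a porin of the outer mitochondrial membrane, where BAK resides. Of its 3 clusters, a pair that shared all 4 values, and so counts as 1 measurement, read 10.43 and 10.47 in Mbd4 KO cells, against 11.05 and 10.92 in control cells. It fell by 0.54 (log2; SE 0.074; limma adjusted p = 0.0397). The remaining cluster read 11.19 and 11.24 in Mbd4 KO cells, against 11.61 and 11.63 in control cells (difference -0.41, adjusted p = 0.0535), and passed with an intensity trend in the prior (0.000223) or without the dimmest 30% of clusters (0.0192), settings under which the pair passed too (0.000176 and 0.0135). With any 1 array left out, where a group is a single array assumed to vary like the other, the difference of the pair was -0.60 to -0.48 and the call was lost (0.126 to 0.207), as it was when replicate number was a block (0.0773). Of the 60 tested clusters nearest to the gene Vdac3 on chromosome 8, 4 were called lower and 0 higher, with a median of -0.0318. Over all tested clusters 0.955% were called lower and 0.431% higher. The position on chromosome 8 is the gene's, not the probes'. By identifier number the pair lies among clusters of chromosome 13 genes, and the remaining cluster among those of chromosome 8 genes. Whether the pair measures the Vdac3 locus, and the part of position in this fall, were not tested. Vdac2, the porin that binds BAK, differed by -0.05 and -0.0012 in its 2 clusters (adjusted p = 0.811 and 0.997). By identifier number the second lies among clusters of chromosome 5 genes, though Vdac2 lies on chromosome 14.

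**Figure D3:**
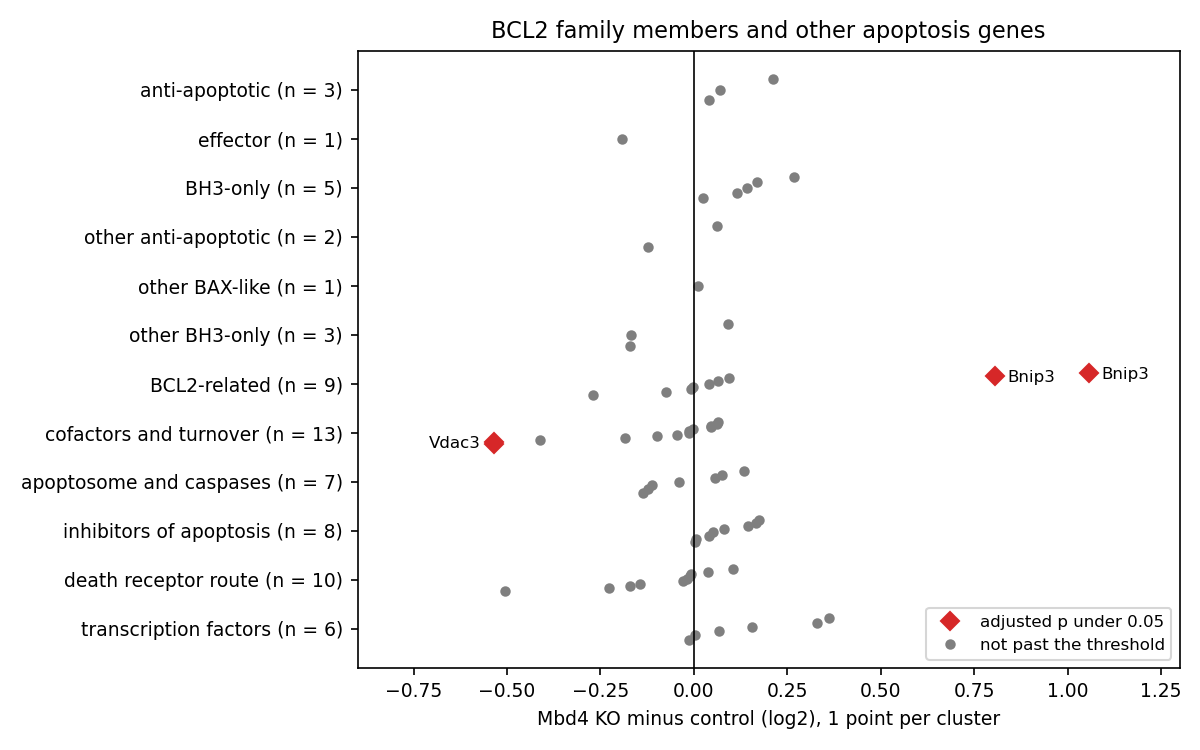
Difference, Mbd4 KO minus control (log2), of every tested cluster of the members (top 3 rows) and of the other apoptosis genes, 1 row per role. Diamonds passed limma's adjusted p of 0.05: 2 clusters of Bnip3 to the right and 2 coinciding clusters of Vdac3 to the left.

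Other relatives of the members had 0 calls. Bik and Hrk, BH3-only genes, differed by -0.17 each (limma adjusted p = 0.354 and 0.561), below 0 where the 5 BH3-only members were above it, and Bad by 0.09. With any 1 array left out Bik ranged from -0.20 to -0.14 and Hrk from -0.31 to -0.03, nearest 0 without the first control array. Bcl2l2 and Bcl2l10, anti-apoptotic genes, and Bok, a BAX-like gene, differed by 0.06, -0.12 and 0.01. Both Bcl2l2 and Bcl2l10 were dim, between the 14.9th and 29th percentile of the arrays. Bik, Bad and Bok lay between the 49.5th and 55.4th percentile, within the range of the fibroblast markers (47.2 to 59.4). The A1 genes Bcl2a1a, Bcl2a1b and Bcl2a1d share all of their clusters with near copies and were not tested.

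Downstream of the pore, the 5 apoptosome and caspase genes measured had 0 calls in 7 clusters, with differences from -0.136 to 0.133 and a median of -0.041. Apaf1, the apoptosome scaffold, differed by -0.14 (limma adjusted p = 0.514). All 8 clusters of the inhibitors of apoptosis and their antagonists had differences above 0, from 0.0017 (Xiap) to 0.174 (Birc3) with a median of 0.065, and 0 were called. These clusters stand for 7 genes, and 57.6% of all tested clusters lay above 0. Birc3, which CD40 signalling induces and which restrains TNF receptor killing, read 10.83 and 10.93 in Mbd4 KO cells, against 10.66 and 10.75 in control cells (adjusted p = 0.389). Its neighbour Birc2 differed by 0.17 and 0.15 in its 2 clusters (adjusted p = 0.347 and 0.69).

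In the death receptor route, which reaches mitochondria through Bid, 0 of 10 clusters, from 8 genes, were called. Of the 10, 8 had differences below 0, as did 42.4% of all tested clusters, and their median was -0.0239. Fas, the receptor gene, read 8.36 and 8.15 in Mbd4 KO cells, against 8.78 and 8.74 in control cells, a difference of -0.51 ± 0.091 (log2, SE; limma adjusted p = 0.0744). Casp8, whose product cleaves BID, read 11.38 and 11.49 in Mbd4 KO cells, against 11.61 and 11.72 in control cells (difference -0.23, adjusted p = 0.288). Both lay lower on each Mbd4 KO array, and Bid itself did not (difference 0.03). With an intensity trend in the prior Fas and Casp8 passed, as lower (adjusted p = 0.00493 and 0.0296), as did 1121 of all 21789 tested clusters. Fas also passed without the dimmest 30% of clusters (0.0302), as did 640 of 15253. Neither gene passed with replicate number as a block (0.0891 and 0.242), without moderation of the variance (0.431 and 0.527) or with all clusters tested (0.254 and 0.459).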

How the data were processed

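RNA of 2 Mbd4 KO and 2 control samples of activated CH12.F3 cells was labelled with the Affymetrix whole-transcript protocol, per the labels' protocols. The deposited log2 values, 1 per transcript cluster and array, come from RMA as run by the authors (submitters' processing notes), whose version is not given in the sources. That they are log2 follows from their range. No raw intensities were used, so no cluster could be set against its background.

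Clusters were named through GEO's platform annotation, whose symbols may be outdated: 21789 had 1 symbol and were tested, 1621 had several and 12146 none. By identifier number, some clusters lie among those of a chromosome other than their gene's, as 1 of Cflar does. Whether these measure the named gene was not tested. Groups came from the titles. The test was limma 3.58.1 in R 4.3.3 (lmFit, eBayes without trend or robust prior), two-sided, adjusted by Benjamini-Hochberg over all tested clusters, a threshold of 0.05, and 2 residual and 4 prior degrees of freedom. No filter or further normalization was applied. SE values and 95% intervals are limma's; the number of arrays limits the precision. Percentiles place a cluster among all values of its array and do not order transcripts. The procedure was tested on simulated data.

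The members and lists were chosen with earlier results of these data known. Named genes are all members, Mbd4, and from each list of other apoptosis genes every passing cluster and the 2 largest other differences; Foxo1, Foxo3, Foxo4, Bnip3l, Vdac2, Bad, Xiap and the second cluster of Birc2 were named after their values were seen. Neighbour medians and promoter counts were also added then. The alternatives were each array left out, a block for replicate number, an intensity trend, a robust prior, no moderation, all clusters tested, the dimmest 30% left out, cyclic loess or quantile normalization, and an adjusted p of 0.1. Some listed genes were not analysed here. Figures were drawn with matplotlib 3.10.9.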

Additional observations from a re-analysis of the deposited data

How the results depend on the processing

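The count of members called was 0 under every alternative, the looser adjusted p of 0.1 included, and the lowest adjusted p of a member in any of them was 0.061 (Bcl2, intensity trend). Of 108 member values under the alternatives, 104 kept direction and side of the threshold and 4 changed sign, each with 1 array left out. The block, intensity trend, robust prior, unmoderated, all-cluster and dim-filter settings leave a difference as it is. Only a left-out array or another normalization could change a direction. With any 1 array left out, Bcl2l1 ranged from -0.0448 to 0.187, Mcl1 from -0.00905 to 0.0876, Bid from -0.00745 to 0.0575, Bmf from 0.0366 to 0.193 and Pmaip1 from -0.0277 to 0.311 (log2). Under the same setting the median ranged from -0.00905 to 0.187 for the anti-apoptotic genes and from 0.0907 to 0.23 for the BH3-only genes, and from -0.235 to -0.148 for Bak1. Bcl2, Bbc3, Bak1, Bcl2l11 and Bmf kept their signs under every alternative. As their groups do not overlap, leaving out 1 array could not have reversed them. Where an array is left out, the lone array of its group is assumed to vary like the other group, so those p-values rest on 1 group's spread and the prior.

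The count of called clusters, 302 over all genes and 4 over the other apoptosis lists, became 1121 and 9 with an intensity trend, 640 and 7 without the dimmest 30% of clusters, 593 and 7 at an adjusted p of 0.1, 22 and 0 over all clusters of the table, and 65 to 75 and 1 with any 1 array left out. Without moderation of the variance limma called 0 and 0, where 2469 of 21789 clusters and 12 of the list clusters had an unadjusted p under 0.05. With all clusters tested, 9 of the list clusters did. The cause was not tested. With the replicate number as a block the counts were 159, 2 and 0 members. The labels do not say what same-numbered arrays share. Deviations of same-numbered arrays correlated at 0.0831 across clusters, over 2 pairs.

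Of other named genes, Bok changed sign with cyclic loess normalization (-0.0126). With 1 array left out it ranged from -0.103 to 0.123, Bcl2l2 from -0.031 to 0.156, 1 cluster of Fbxw7 from -0.37 to 0.00036 and 1 of Cycs from -0.0617 to 0.328. The other cluster of Fbxw7 differed by -0.0136 and the other 2 of Cycs by -0.111 and -0.123. By identifier number those 2 lie among clusters of chromosome 19 and chromosome 5 genes, though Cycs lies on chromosome 6.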
